A study of Mus musculus with 16 samples.

Results

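The genes of the circadian clock were followed in left ventricles of mice with and without PKM2. The 10 genes Arntl, Clock, Per1, Per2, Per3, Cry1, Cry2, Nr1d1, Nr1d2 and Dbp were taken by symbol from the 55492 genes measured, and all 10 passed the filter on low values, a mean of at least 10 normalized counts over the 16 libraries. A normalized count is the number of reads on a gene divided by the library's size factor. On that scale 7 of the 10 genes were lower 3 days after myocardial infarction (MI) than after sham surgery in PKM2fl/fl hearts, by limma's test with a Benjamini-Hochberg adjusted p under 0.05, as were 25.3% of all genes tested. In PKM2-/- hearts 6 of the 10 were lower, as were 28.1% of all genes. Sham surgery itself was accompanied by higher Arntl and lower Per3, Nr1d1 and Dbp in PKM2-/- hearts, where each change was also at least 2-fold and 2.66% of all genes had such a change. A change that met both conditions is called here.

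Total RNA depleted of rRNA was sequenced from the left ventricles of 16 male C57BL/6 mice, 8 to 12 weeks of age, with 1 mouse for each library. PKM2-/- mice lacked the Pkm2-specific exon in every tissue, after CMV-driven Cre acted on the germline and was bred out, and the PKM2fl/fl controls carried the floxed allele without its deletion. Each genotype had 2 hearts taken without surgery (baseline), 3 hearts taken on day 3 after sham surgery, and 3 hearts taken on day 3 after MI by permanent ligation of the left anterior descending artery. The time of day at which the hearts were collected is not given in the sources used here, so its part in the values was not tested.

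The libraries held 20623769 to 71855101 reads, and each clock gene had at least 89 reads in every library. Loci related to rRNA took 15.8% to 46.1% of the reads of a library. Pkm, the targeted gene, gave 7779 to 12076 normalized counts in PKM2fl/fl hearts and 10120.0 to 16113 in PKM2-/- hearts, and was not called between genotypes. The table counts both Pkm isoforms together, so that this value checks the genotype labels little. The 7 cardiomyocyte markers were all detected, and their summed level was 640602 to 820196 normalized counts without infarction. After MI the sum was 115116 to 292783 in PKM2fl/fl and 130608 to 181931 in PKM2-/- hearts. In whole tissue, fewer cells of a type and less RNA per cell cannot be told apart. P-values measure the spread between the mice of this series.

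The clock is a feedback loop of transcription. ARNTL (also called BMAL1) and CLOCK bind E-boxes as a pair and switch on the Per, Cry, Nr1d and Dbp genes, the PER and CRY proteins then block that pair, and the NR1D receptors (REV-ERBs) hold down Arntl through ROR elements. DBP activates genes that carry D-boxes, Per3 among them. In mouse tissues Arntl therefore peaks at the opposite time of day to Nr1d1 and Dbp, and the clock of cardiomyocytes sets daily rhythms of metabolism and ion channels in the heart.

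The motifs of this loop were searched on both strands of the 250 bases before each start site in RefSeq promoters (GRCm38.p6), where 9 of the 10 genes have an entry. They were the E-box CACGTG, the D-box TTATGTAA or TTACGTAA, the ROR element TAGGTCA or TGGGTCA, and the cAMP element TGACGTCA. Per3, on the reverse strand of chromosome 4, held 2 D-boxes, while 0.931% of all 32851 promoters held at least 1. Per1 and Cry1 each held an E-box, a motif found in 6.02% of promoters. Of 5 other clock genes searched (Npas2, Nfil3, Ciart, Tef and Hlf), Ciart held 3 E-boxes, Tef an E-box in each of its 2 promoters, Nfil3 a ROR element, which 5.38% of promoters held, and Hlf a cAMP element, which 1.55% held. Npas2 held none. The windows of Arntl, Clock, Cry2, Nr1d1, Nr1d2 and Dbp held none of these letters. This says nothing of sites elsewhere in those genes, of variants with other letters, or of sites cut by the window's edge. The matched stretches are given 5′ to 3′ on the strand of the gene, with the motifs in capitals, because the values of the genes that carry them are described in the following paragraphs.
Per3 (chr4:151044708-151044915, minus strand): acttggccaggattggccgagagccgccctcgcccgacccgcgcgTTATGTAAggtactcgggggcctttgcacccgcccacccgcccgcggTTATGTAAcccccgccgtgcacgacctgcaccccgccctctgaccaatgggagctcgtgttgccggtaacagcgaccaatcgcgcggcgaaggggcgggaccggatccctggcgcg
Per1 (chr11:69098771-69098800, plus strand): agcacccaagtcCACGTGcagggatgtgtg
Cry1 (chr10:85185097-85185126, minus strand): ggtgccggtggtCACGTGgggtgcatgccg
Ciart (chr3:95882327-95882356, minus strand): tgcatctagagtCACGTGttgccggtaagc
Ciart (chr3:95882262-95882291, minus strand): ggaggCACGTGcagaaccgCACGTGtctgg
Nfil3 (chr13:52981040-52981069, minus strand): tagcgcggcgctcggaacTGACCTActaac
Tef (chr15:81802534-81802563, plus strand): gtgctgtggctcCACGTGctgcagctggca
Tef (chr15:81811264-81811293, plus strand): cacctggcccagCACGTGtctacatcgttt
Hlf (chr11:90390918-90390947, minus strand): atcggcgcgcggtgcgggcccTGACGTCAc

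The first question was how the clock genes stood in each group of hearts. Arntl, the partner of CLOCK (chr7:113178471-113314126, GRCm38.p6), measured 339 and 452 normalized counts in PKM2fl/fl hearts at baseline, and 179 and 238 in PKM2-/- hearts at baseline. After sham surgery it measured 650.4, 739 and 351 in PKM2fl/fl hearts and 770.1, 929.9 and 726 in PKM2-/- hearts. After MI it measured 1003, 583 and 702 in PKM2fl/fl hearts and 684, 721 and 848 in PKM2-/- hearts. Both baseline groups were thus lowest. The group means ran from PKM2-/- baseline at 209 ± 41.5 (SD, n = 2) through PKM2fl/fl baseline at 396 ± 80.2 (SD, n = 2) and PKM2fl/fl sham at 580.1 ± 203 (SD, n = 3) to the other 3 groups, between 751 and 809. The baseline groups did not overlap each other, but PKM2fl/fl sham replicate 3 lay at the level of its baseline group, and the sham and MI groups overlapped.

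Dbp, an output of the loop that encodes an activator (chr7:45705100-45710203), had its highest group means at baseline, where those of Arntl were lowest. Its normalized counts were 2268 and 1985 in PKM2fl/fl hearts at baseline and 2814 and 2705 in PKM2-/- hearts at baseline. They were 971, 882 and 1693 after sham surgery in PKM2fl/fl hearts, and 508, 671 and 763 in PKM2-/- hearts. After MI they were 250.4, 733 and 219 in PKM2fl/fl hearts and 213, 184 and 128 in PKM2-/- hearts. Within each genotype the 3 treatments were fully separated, with baseline highest and MI lowest. The group means fell from 2759 ± 76.9 (PKM2-/- baseline, SD, n = 2) to 175 ± 43.0 (PKM2-/- MI, SD, n = 3), and at every treatment the PKM2fl/fl and PKM2-/- hearts did not overlap. In groups of 2 or 3 hearts such separation was common, since 34.9%, 16.5% and 18.9% of all genes tested did not overlap between genotypes at baseline, after sham and after MI. Between MI and sham 59.0% and 62.3% did not, and between sham and baseline 32.5% and 34.5%, in PKM2fl/fl and PKM2-/- hearts. PKM2fl/fl sham replicate 3 and PKM2fl/fl MI replicate 2 stood above the other hearts of their groups.

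Nr1d1, which encodes the receptor REV-ERBα (chr11:98767932-98775377), gave 2944 and 2842 normalized counts at baseline in PKM2fl/fl hearts, and 3292 and 3212 in PKM2-/- hearts. After sham surgery it gave 1846, 1849 and 2623 in PKM2fl/fl hearts and 1304, 1328 and 1960.1 in PKM2-/- hearts. After MI it gave 1218, 1437 and 569.8 in PKM2fl/fl hearts and 581, 563 and 423 in PKM2-/- hearts. In both genotypes all MI hearts lay under all sham hearts, and those under all baseline hearts. Nr1d2, its relative REV-ERBβ (chr14:18204056-18239106), had group means of 4146, 3779 and 1818 normalized counts at baseline, after sham and after MI in PKM2fl/fl hearts. The same means in PKM2-/- hearts were 4286, 2816 and 1022, where the 3 groups did not overlap.

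Per3, a member of the PER family (chr4:150997018-151044707), measured 1833 and 1551 normalized counts at baseline in PKM2fl/fl hearts, and 1909 and 1805 in PKM2-/- hearts. It measured 1174, 1121 and 1688 after sham surgery in PKM2fl/fl hearts, and 793, 729 and 967 in PKM2-/- hearts. After MI it measured 414, 886 and 481 in PKM2fl/fl hearts and 286, 326 and 293 in PKM2-/- hearts. The PKM2-/- hearts lay under the PKM2fl/fl hearts after both operations, and the same PKM2fl/fl replicates as for Dbp, sham 3 and MI 2, were the highest of their groups.

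The remaining 5 genes differed less between groups. Cry2, which encodes a blocker of CLOCK and ARNTL (chr2:92403646-92434085), averaged 905, 778 and 438 normalized counts at baseline, after sham and after MI in PKM2fl/fl hearts, and 932, 694 and 398 in PKM2-/- hearts. Per2 (chr1:91415977-91459351) averaged 690.1, 801 and 436 in PKM2fl/fl hearts and 884, 947 and 483 in PKM2-/- hearts. Cry1 (chr10:85131700-85185054) stayed between 205 and 350.2 and Clock (chr5:76209868-76305603) between 1712 and 2511 normalized counts over all 16 hearts. Per1, which responds to stress hormones and cAMP as well as to the clock (chr11:69095108-69109965), measured 945 and 1434 at baseline, 1398, 987 and 1359.9 after sham surgery, and 579.7, 620.5 and 867 after MI in PKM2fl/fl hearts. For Per1 the PKM2-/- hearts gave 1281 and 1362, then 1628, 1971 and 1215, then 2148, 1346 and 1206. All 3 PKM2fl/fl hearts after MI were thus under every other heart, while PKM2-/- hearts after MI overlapped those after sham surgery.

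**Figure D1:**
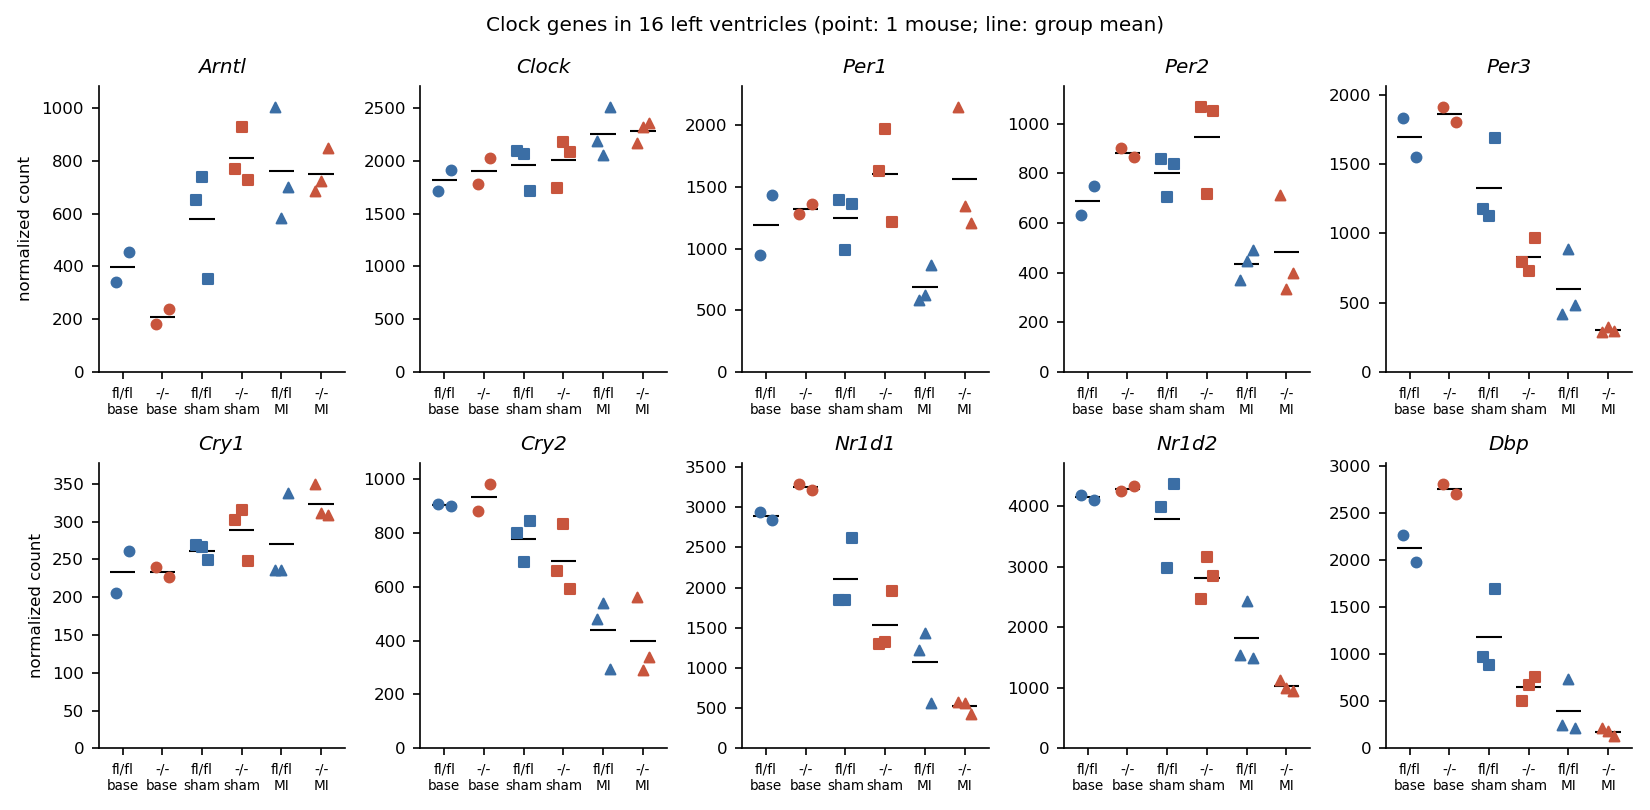
Normalized counts of the 10 clock genes (vertical axis, from 0, its own scale for each gene) in the 6 groups (horizontal axis), with a point for each mouse and a line at the group mean. Arntl is lowest at baseline, with group means of 396 (PKM2fl/fl) and 209 (PKM2-/-), whereas Dbp, Nr1d1 and Per3 are highest there and lowest after MI, and Per1 is low only in PKM2fl/fl hearts after MI (mean 689).

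The second comparison was of MI with sham surgery within each genotype. In PKM2fl/fl hearts, Per3, Nr1d1, Nr1d2 and Dbp were lower and called, 4 of the 10 genes, and Per1, Per2 and Cry2 were also lower but by less than 2-fold. Of all 20576 genes tested, 23.5% were called in this comparison, 11.1% in the lower direction, and 25.3% were lower by the adjusted p alone. The median log2 fold change was -0.88 over the clock genes and -0.0025 over all genes tested. Dbp fell by 1.72 on the log2 scale (SE 0.36, limma adjusted p = 0.00099), which is 3.30-fold. Per3 had a log2 fold change of -1.22 (SE 0.22, limma adjusted p = 0.000355). Both Nr1d genes, the brakes on Arntl, were near 2-fold lower, Nr1d1 at -1.05 (limma adjusted p = 0.00417) and Nr1d2 at -1.07 (limma adjusted p = 0.000115). Per1, Per2 and Cry2 had log2 fold changes of -0.86, -0.88 and -0.87 (limma adjusted p of 0.00686, 0.00429 and 0.00584). The activators did not pass the test, Arntl at 0.43 (95% interval -0.10 to 0.96) and Clock at 0.20, nor did Cry1 at 0.02. Since Nr1d1 and Nr1d2 lay close to 2-fold, they fell under it, to -0.89 and -0.96, without PKM2fl/fl sham replicate 3. Without PKM2fl/fl MI replicate 1, Per3 (-0.997) and Nr1d2 (-0.97) fell short, and without replicate 3 of that group Nr1d1 (-0.65) and Nr1d2 (-0.95) did, always with an adjusted p under 0.05.

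In PKM2-/- hearts 5 of the 10 genes were called lower after MI, Per2, Per3, Nr1d1, Nr1d2 and Dbp, and Cry2 was lower by less than 2-fold. Of all genes tested, 28.8% were called, 14.3% in the lower direction, and 28.1% were lower by the adjusted p alone. The median was -0.93 over the clock genes and 0.01 over all genes. Dbp was again the member with the largest fall, 1.89 on the log2 scale (SE 0.36, limma adjusted p = 0.000361), or 3.71-fold. Nr1d1 at -1.54, Nr1d2 at -1.46 and Per3 at -1.45 followed (limma adjusted p of 0.000173, 5.18e-06 and 5.71e-05). Per2 was at -1.03 (limma adjusted p = 0.00117) and Cry2 at -0.84 (limma adjusted p = 0.00617). Per2 lay so close to 2-fold that it missed it in turn without PKM2-/- sham replicate 1 or 3 or MI replicate 2 or 3 (-0.80 to -0.94). Per1 did not differ detectably, with a log2 fold change of -0.05 (95% interval -0.56 to 0.45), nor did Arntl at -0.10, Clock at 0.19 and Cry1 at 0.17.

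Several gene groups moved beside the clock genes after MI. All 7 cardiomyocyte markers were called lower in both genotypes, with medians of -1.94 in PKM2fl/fl and -2.19 in PKM2-/- hearts. These medians lie below the value of each of the 10 clock genes. Of the 7 leukocyte markers 5 were called higher (medians 1.76 and 1.97), and of the 5 fibroblast markers 3 were (medians 2.54 and 2.68). The summed leukocyte markers were 3976 to 8920 normalized counts after sham surgery and 18165 to 33014 after MI. The endothelial and erythroid markers and the 1 adipocyte marker tested were not called. Of the 4 atrial markers Nppa was called higher (1.28 and 1.33), whereas the medians of the 4 were negative, -1.02 and -0.91. The part of these changes in tissue make-up in the clock genes' values was not tested.

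**Figure D2:**
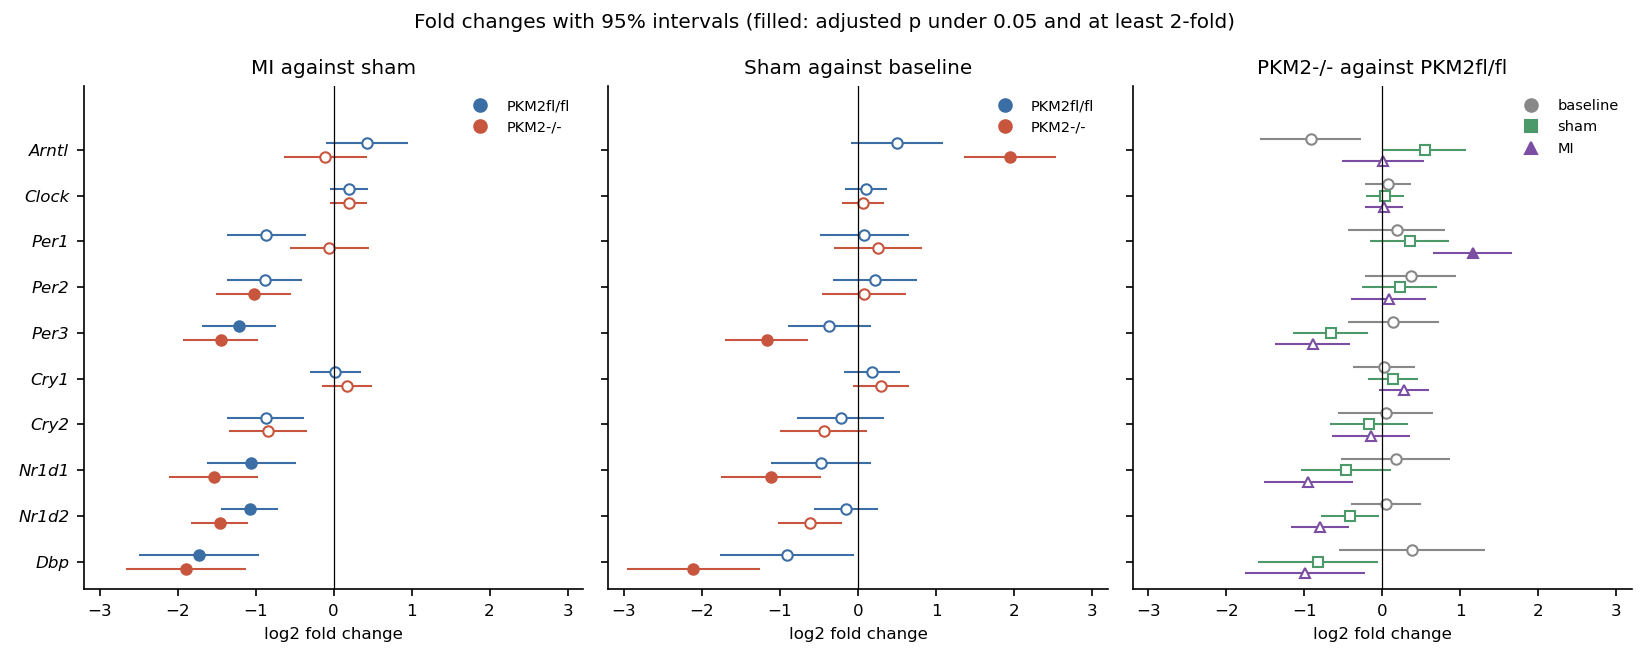
Log2 fold changes of the 10 clock genes (horizontal axis) with 95% intervals, for MI against sham, for sham against baseline, and for PKM2-/- against PKM2fl/fl hearts, where filled points are called. Dbp lies farthest left for MI in both genotypes (-1.72 and -1.89), Arntl farthest right for sham surgery in PKM2-/- hearts (1.95), and among genotype effects only Per1 after MI (1.16) is filled.

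The third comparison was of sham surgery with baseline. In PKM2-/- hearts 4 of the 10 clock genes were called, where 2.66% of all genes were. Arntl was higher, as were 2.06% of all genes, and Per3, Nr1d1 and Dbp were lower, as were 0.608%. The rise of Arntl was 1.95 on the log2 scale (SE 0.28, limma adjusted p = 0.00168), or 3.87-fold. Dbp fell by 2.11 (SE 0.40, limma adjusted p = 0.00797), or 4.32-fold. Per3 was at -1.17 (limma adjusted p = 0.0142), 2.25-fold lower, and Nr1d1 at -1.11 (limma adjusted p = 0.0442), 2.16-fold lower. Nr1d2 had a log2 fold change of -0.61 (limma adjusted p = 0.0837), which misses the threshold. Clock, Per1, Per2, Cry1 and Cry2 were not called. With 2 hearts at baseline the calls rest on few mice. Without PKM2-/- baseline replicate 1 Arntl alone was called, and Per3, Nr1d1 and Dbp had limma adjusted p of 0.0978, 0.202 and 0.0580. Without baseline replicate 2 the same held, with 0.0817, 0.181 and 0.0602. Without PKM2-/- sham replicate 2, Arntl and Dbp were called and Per3 had an adjusted p of 0.0505. Nr1d1 also lost its call without PKM2-/- sham replicate 1 (adjusted p = 0.132), and narrowly (0.0510 to 0.0608) without any 1 of 7 libraries of other groups, through the shared estimate of the spread.

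In PKM2fl/fl hearts 0 of the 10 clock genes were called between sham and baseline by limma, where 0.17% of all genes were. At an unadjusted p under 0.05 there was 1, Dbp, and over all genes tested there were 1813 of 20576. EdgeR, DESeq2 and limma-voom called 0 of the clock genes. Dbp was at -0.91 (SE 0.40, limma adjusted p = 0.528) and Arntl at 0.50 (SE 0.28, adjusted p = 0.685). Without PKM2fl/fl sham replicate 3, Dbp was at -1.20 and Arntl at 0.82 (limma adjusted p = 0.116). Whether the response to sham surgery differed between genotypes was tested by an interaction term. By limma it called 0% of all genes. Of the 10 clock genes 0 were called by limma, edgeR, DESeq2 or limma-voom, and DESeq2 called 20 of 19529 genes. At an unadjusted p under 0.05 the clock genes were Arntl (1.46, SE 0.39, limma adjusted p = 0.471) and Per3 (-0.80, adjusted p = 0.761). By limma, 1294 of all 20576 genes tested had such an unadjusted p. The calls in PKM2-/- hearts are therefore not shown to be larger than the values in PKM2fl/fl hearts.

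Sham surgery was also the comparison in which markers of other processes were called in PKM2-/- hearts. Of the glucocorticoid-responsive genes, 1 of 6 was called higher, Fkbp5 at 2.17 (limma adjusted p = 0.0165). Its counts were 1012 and 1264 at baseline and 4982, 8822 and 3025 after sham surgery. Of the 7 temperature-responsive genes, the chaperone genes Hspa1a (2.77) and Hsph1 (1.29) were called higher. Of the leukocyte markers 3 of 7 were called higher, among them S100a8 (3.41) and S100a9 (3.43), and of the fibroblast markers Col1a1 and Col3a1. The atrial marker Nppa (1.43) and the adipocyte marker Cfd (3.00) were called higher too, while 0 of 7 cardiomyocyte, 0 of 4 endothelial and 0 of 3 erythroid markers were called. In PKM2fl/fl hearts 0 genes of these lists were called by limma. Their part in the clock genes' values was not tested.

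The fourth comparison was of the genotypes. At baseline 0 of the 10 clock genes were called by limma, edgeR, DESeq2 or limma-voom, and 0.00972% of all genes were by limma. The 1 clock gene with an unadjusted p under 0.05 was Arntl, with both PKM2-/- hearts under both PKM2fl/fl hearts and a log2 fold change of -0.92 (SE 0.30, limma adjusted p = 1). Such an unadjusted p was found for 748 of all 20576 genes tested. Dbp was at 0.38, Per2 at 0.36 and Per1 at 0.18, and the other 6 clock genes were closer to 0. At baseline, rRNA-related loci took 17.3% to 22.1% of reads in PKM2fl/fl and 39.7% to 43.9% in PKM2-/- hearts, and the part of this gap in these values was not tested.

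After sham surgery 0 of the 10 clock genes were called between genotypes by limma, edgeR, DESeq2 or limma-voom, against 0.00486% of all genes by limma. Arntl, Per3, Nr1d2 and Dbp, 4 genes, had an unadjusted p under 0.05, as did 2047 of all 20576 genes tested. Arntl was at 0.54 (SE 0.25, limma adjusted p = 0.492), opposite in sign to its baseline value. Per3 was at -0.66 (SE 0.22, limma adjusted p = 0.292), Nr1d2 at -0.41 and Dbp at -0.83 (SE 0.36, adjusted p = 0.460). Without PKM2fl/fl sham replicate 3, which held high Dbp and low Arntl, these values were 0.21 for Arntl, -0.48 for Per3, -0.30 for Nr1d2 and -0.54 for Dbp. Loci related to rRNA took 15.8% to 27.8% of reads in PKM2fl/fl and 28.6% to 46.1% in PKM2-/- sham hearts. The part of this gap in the values was not tested either.

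After MI, Per1 was higher in PKM2-/- hearts and was the 1 clock gene called, where 0.413% of all genes were called and 0.156% called higher. Its log2 fold change was 1.16 (SE 0.24, 95% interval 0.65 to 1.67, limma adjusted p = 0.0365), or 2.23-fold, and every PKM2-/- heart lay above every PKM2fl/fl heart. Nr1d2 was lower by less than 2-fold (-0.80, SE 0.17, limma adjusted p = 0.0456). Per3 (-0.89), Nr1d1 (-0.95) and Dbp (-0.995) had adjusted p of 0.0659, 0.0943 and 0.175, while Arntl (0.01), Clock (0.02) and Per2 (0.08) were near 0. The call of Per1 was lost without any 1 of 5 of the 6 MI hearts, with limma adjusted p of 0.0731 to 0.142, and its log2 fold change was lowest, 0.91, without PKM2-/- MI replicate 1. It was also lost narrowly (0.0528 to 0.0543) without any 1 of 4 libraries of other groups. Without PKM2fl/fl MI replicate 3, 4 clock genes were called, Per1 higher and Per3, Nr1d1 and Dbp lower, and calls over all genes rose as well, to 634 of 20513. Without PKM2fl/fl MI replicate 2 the values of Per3, Nr1d1 and Dbp were -0.57, -0.69 and -0.45. Whether the effect of MI differed between genotypes was tested by an interaction term, which called 0% of all genes by limma. Of the clock genes 0 were called by limma, edgeR, DESeq2 or limma-voom, and DESeq2 called 36 of 18768 genes. Per1 was the 1 clock gene with an unadjusted p under 0.05 (0.81, SE 0.34, limma adjusted p = 0.566). By limma, 1703 of all 20576 genes tested had such an unadjusted p. The comparisons of MI with sham, of sham with baseline and of the genotypes after sham share the sham hearts, and their values are not independent.

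The fifth question was whether hearts of the same group differed along the axis of the clock. The ratio of Dbp to Arntl counts, used between hearts and not as a level, was 6.69 and 4.39 in PKM2fl/fl hearts at baseline and 15.7 and 11.4 in PKM2-/- hearts at baseline. After sham surgery it was 1.49, 1.19 and 4.82 in PKM2fl/fl hearts and 0.66, 0.722 and 1.05 in PKM2-/- hearts. After MI it was 0.25, 1.26 and 0.311 in PKM2fl/fl hearts and 0.312, 0.254 and 0.151 in PKM2-/- hearts. The ratio was highest at baseline, and PKM2fl/fl sham replicate 3 lay within the range of the PKM2fl/fl baseline hearts. PKM2fl/fl MI replicate 2 lay within the range of the hearts after sham surgery.

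The log2 level of each gene was then regressed on that of Arntl, with the 6 groups as terms, so that only differences between hearts of a group count. Of the 9 other clock genes limma called 0 at an adjusted p under 0.05, as it called 0% of all genes. An unadjusted p under 0.05 was found for 4 of the 9, and for 833 of all 20575 genes tested. EdgeR and limma-voom also called 0 and DESeq2 called 1, Per3. The slope was -0.72 log2 units per log2 unit of Arntl for Per3 (SE 0.16, limma adjusted p = 0.750) and -1.01 for Dbp (SE 0.30, limma adjusted p = 0.873). It was 0.25 for Clock, the partner of ARNTL, and -0.38 for Nr1d2, -0.40 for Nr1d1 and -0.32 for Per2. The slopes of Per1, Cry1 and Cry2 were -0.09, 0.09 and -0.08. Without the 2 hearts farthest from their group in Arntl, PKM2fl/fl sham replicate 3 and MI replicate 1, the slopes of Per3, Dbp and Nr1d1 were -0.76, -1.22 and -1.04. Within the 6 sham hearts the slopes of Per3 and Dbp were -0.60 and -0.80, within the 6 MI hearts -1.10 and -1.76, and within the 4 baseline hearts -0.39 and -0.30. When libraries were scaled to total reads in place of size factors, the slopes of Per3 and Dbp were 0.09 and 0.11, and the median slope of all genes was 0.42.

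**Figure D3:**
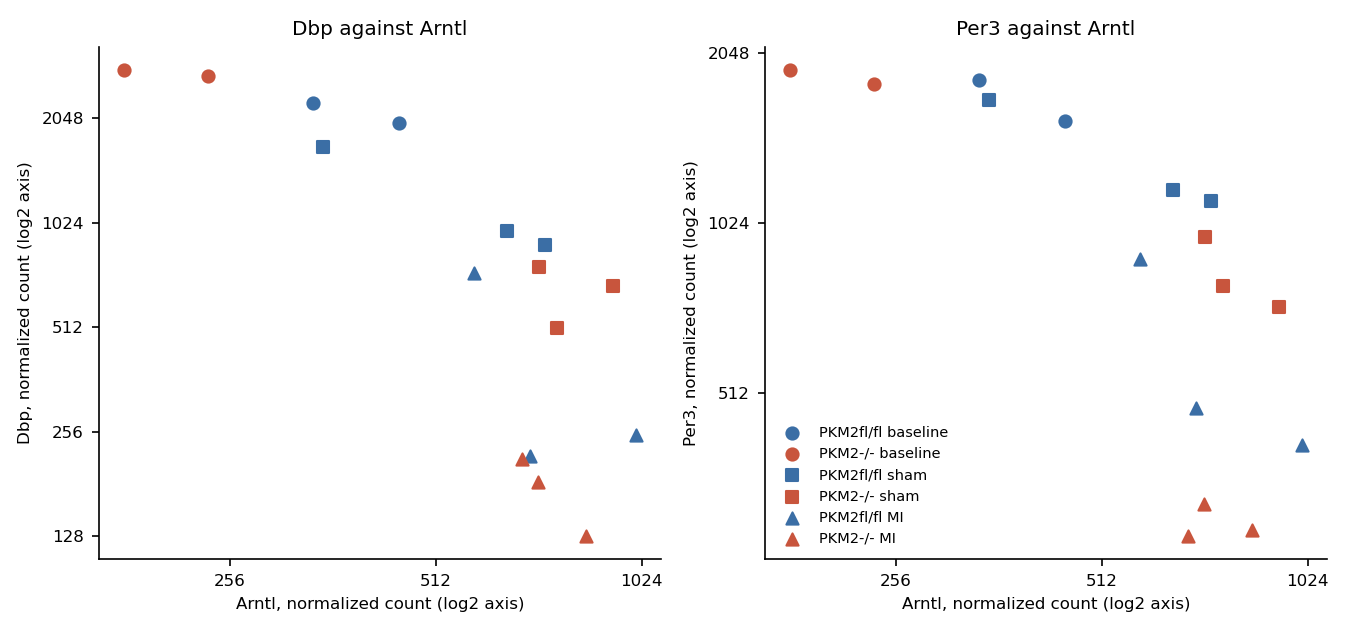
Normalized counts of Dbp and of Per3 (vertical axes, log2) against those of Arntl (horizontal axis, log2) in the 16 hearts, with genotype and treatment marked for each point. Hearts at baseline lie at low Arntl (179 to 452) with high Dbp (1985 to 2814), MI hearts at high Arntl (583 to 1003) with low Dbp (128 to 733), and PKM2fl/fl sham replicate 3 (Arntl 351, Dbp 1693) lies beside the baseline hearts.

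Genes were also ranked by the Pearson correlation of their deviations from group means with those of Arntl, over the 16 hearts. This is a description, since the values share libraries and size factors. The 5 genes most like Arntl were Lrg1 (0.90), Gm27786 (0.87), Slc6a17 (0.87), 5031439G07Rik (0.87) and Pprc1 (0.86). The 5 least like it were Gm3448 (-0.87), Gm43258 (-0.87), Morn4 (-0.86), Muc15 (-0.86) and 1700113H08Rik (-0.84). Per3 stood at -0.80, the 16th from the least like, and Dbp at -0.68, the 139th. Clock, at 0.64, was the 376th from the most like.

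Other genes of the clock were counted by their roles. Among the PAR bZIP factors, the D-box binders related to DBP, Tef and Hlf, 2 of 2, were called lower after MI in both genotypes, Tef at -1.39 and -1.70 and Hlf at -1.92 and -2.52 in PKM2fl/fl and PKM2-/- hearts. Hlf measured 1064 and 903 at baseline, 691, 630.3 and 939 after sham and 182, 318 and 128 after MI in PKM2fl/fl hearts. The PKM2-/- hearts gave 1381 and 1043, then 551, 481 and 614, then 116, 92.7 and 77.9, with the 3 treatments apart in both genotypes except for PKM2fl/fl sham replicate 3. Like Dbp, Hlf was called lower after sham surgery in PKM2-/- hearts (-1.13, limma adjusted p = 0.0356).

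The ROR receptors activate Arntl and compete with the NR1D receptors. Rora was called lower after MI in both genotypes (-1.03 and -1.14), and Rorb in PKM2-/- hearts (-1.45). Of the other 6 repressors 1 was called lower after MI in each genotype, Ciart (-2.39 and -1.79), a blocker of CLOCK and ARNTL with 3 E-boxes in its promoter window, and the medians were 0.10 and 0.16. Ciart measured 174, 137 and 189.7 normalized counts after sham and 15.5, 55.7 and 32.9 after MI in PKM2fl/fl hearts, and 101, 139.7 and 163 after sham and 58.4, 31.1 and 28.9 after MI in PKM2-/- hearts. The groups did not overlap.

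Nfil3, a repressor that competes with DBP at D-boxes, was lowest at baseline, as Arntl was. It measured 191 and 152 normalized counts at baseline, 508, 396 and 207 after sham and 476, 275 and 508 after MI in PKM2fl/fl hearts. The PKM2-/- hearts gave 152 and 202, then 637, 680.4 and 403, then 882, 765 and 848. PKM2fl/fl sham replicate 3 and MI replicate 2, the hearts with high Dbp, were the lowest of their groups. Nfil3 was called higher after sham surgery in PKM2-/- hearts (1.67, SE 0.33, limma adjusted p = 0.0102), where 1 of the 6 repressors was called lower, Bhlhe41 (-1.13, limma adjusted p = 0.0119). In PKM2fl/fl hearts Nfil3 was at 1.02 (limma adjusted p = 0.281), and after MI it was at 1.03 between genotypes (limma adjusted p = 0.0986).

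Of the 9 clock kinases, ubiquitin ligases and proteases 1 was called lower after MI in each genotype, Usp2 (-1.57 and -2.22), a protease that acts on clock proteins, and the medians were -0.02 and -0.19. Of the 9 clock-linked output genes of the heart, 6 were called lower in PKM2fl/fl and 7 in PKM2-/- hearts, with medians of -1.15 and -1.31. Over all genes 11.1% and 14.3% were called lower in these comparisons, and of the cardiomyocyte markers 7 of 7, with medians of -1.94 and -2.19. Klf15, a regulator of heart metabolism, was at -2.21 and -2.46. Kcnip2, a subunit of a potassium channel, was at -2.32 and -2.96. Dgat2, an enzyme of triglyceride synthesis, was at -1.93 and -2.28. After sham surgery in PKM2-/- hearts 1 of the 9 was called higher, Cdkn1a (2.29, limma adjusted p = 0.0062), an inhibitor of the cell cycle.

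Of the 6 glucocorticoid-responsive genes, 3 were called lower after MI in PKM2fl/fl hearts, Klf9 (-1.21), Tsc22d3 (-1.005) and Zbtb16 (-1.88), and 1 in PKM2-/- hearts, Zbtb16, with medians of -0.76 and -0.38. Of the 7 temperature-responsive genes, Rbm3 was called higher in both genotypes, Cirbp lower in PKM2fl/fl hearts (-1.24) and Hsph1 lower in PKM2-/- hearts (-1.27), with medians of 0.26 and -0.40. In the genotype effects, the interactions and the slope on Arntl, 0 genes of these lists were called by limma.

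**Figure D4:**
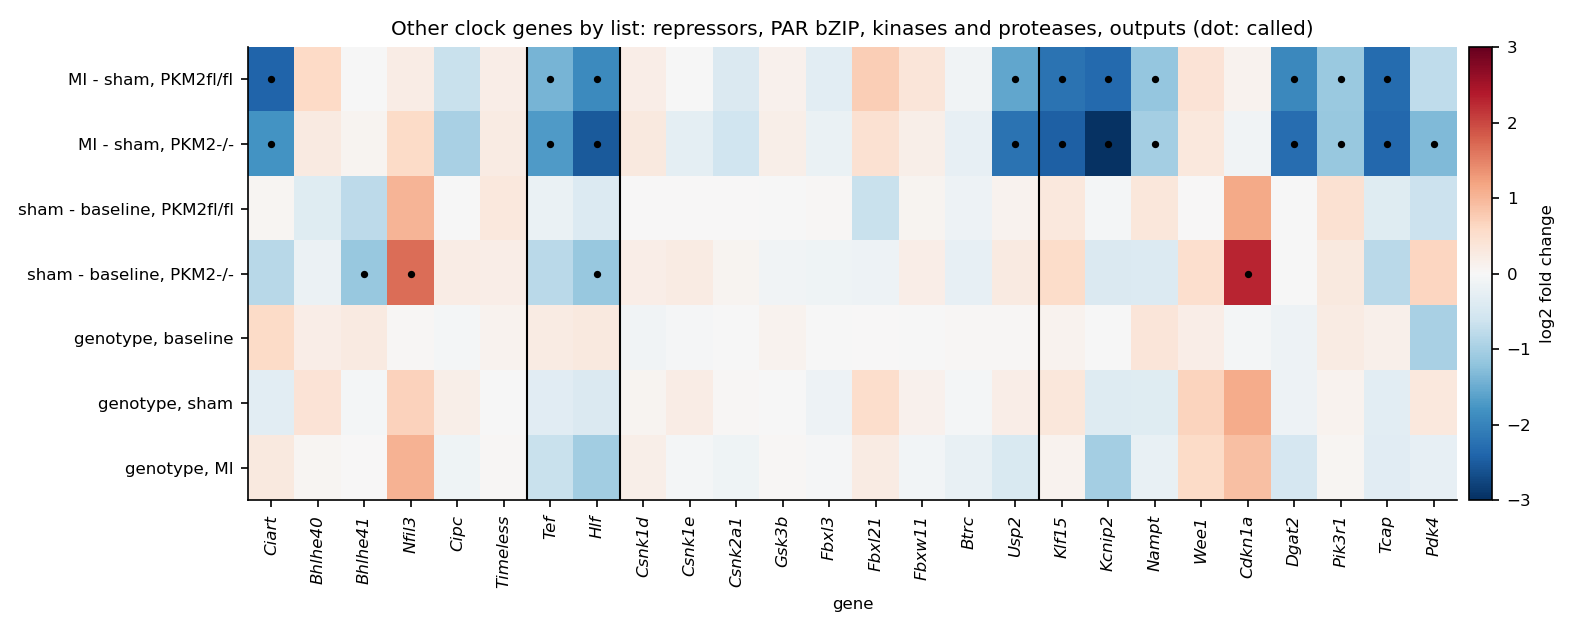
Log2 fold changes (color scale) of the other clock genes (horizontal axis, grouped by role) in each comparison (vertical axis), with a dot where a gene was called. Tef, Hlf, Ciart, Usp2, Klf15, Kcnip2 and Dgat2 are called lower after MI in both genotypes, and Nfil3 and Cdkn1a are called higher after sham surgery in PKM2-/- hearts, whereas 0 of these genes were called in an interaction.

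Some reads on the clock genes may belong to their neighbours, since the strand setting of the counting is not given in the sources used here. Thra overlaps Nr1d1 by 1075 bases, Sphk2 overlaps Dbp by 741, D930015M05Rik overlaps Cry2 by 23417 and Uts2 overlaps Per3 by 4714. Thra was called lower after MI, in PKM2-/- hearts (-1.18), and was at -0.97 in PKM2fl/fl hearts. Sphk2 was called lower after sham surgery in PKM2-/- hearts (-1.11, limma adjusted p = 0.00413), from 1322 and 1307 normalized counts at baseline to 585, 571 and 679. Uts2 had at most 22.3 normalized counts in any heart. D930015M05Rik, which has the largest overlap, had 179 to 647, where Cry2 itself had 291 to 982. Clock is overlapped by Ube2n-ps1 (1213 bases, 23.0 to 141 normalized counts) and Gm7467 (652 bases, at most 8.04). Reads from the shared bases of these pairs cannot be told apart.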

How the data were processed

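Left ventricular RNA libraries of 16 mice were grouped by their labels into genotype and treatment. Per the labels and methods, the authors aligned reads to mm10 with HISAT2 and counted them per gene with featureCounts. The deposited signal is the read count divided by the DESeq2 size factor of the library (0.546 to 2.04). The authors' own mean, log2 fold change, standard error, Wald score, p-value and adjusted p-value between baseline groups were not used. Whole reads were recovered from 100% of values within 0.01 read, and 0 columns lacked a sample.

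Values were tested as log2(value + 1) with limma-trend (limma 3.58.1, R 4.3.3), with a single model of 6 group means fitted to all libraries after a filter that kept the 20576 genes whose mean reached 10. P-values were adjusted by Benjamini-Hochberg over all genes, and a call needed an adjusted p under 0.05 together with a 2-fold change (for the slope on Arntl, by the adjusted p alone). Fold changes on this scale understate those of low genes. Alternatives used edgeR 4.0.16, DESeq2 1.42.0 and limma-voom on recovered reads, other scalings, filters and pseudocounts, and each library left out. The limma-trend model was first tested on simulated data in which known genes were changed, with a single spread for all genes. Only the genotype effect after MI and the slope on Arntl were checked in this way. The other tools and comparisons were not simulated.

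All 10 clock genes were named. Of the lists, genes called in genotype effects or interactions and at most 3 with the smallest p of those called elsewhere were to be named, besides overlapping genes and the 5 most and least like Arntl. A few further called genes (such as Nfil3 in other comparisons, and marker genes) were named after their values were seen. For other clock activators and ROR receptors no list count is given, since part of that list is not reported here. The clock genes and lists were chosen with earlier results of these data known. Promoters and positions are from RefSeq (GRCm38.p6). Depth intervals were not computed. Each clock gene had at least 89 reads, and the part of depth in the precision was not tested.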

Additional observations from a re-analysis of the deposited data

How the results depend on the processing

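The 14 calls of clock genes were set against other processing or fits without a library of the groups compared, which gave 220 values. Of these 178 kept the call, 42 lost it and 0 turned the direction. The 220 include the adjusted p alone for each of the 14 calls, which reuses the main fit and could only keep them. Libraries of other groups, left out in turn, also cost the call of Per1 after MI (4 libraries) and of Nr1d1 for sham surgery in PKM2-/- hearts (7 libraries). Between genotypes after MI, where Per1 was the 1 gene called, DESeq2 called 2 (Per1 and Nr1d1), the adjusted p alone 2 (Per1 and Nr1d2), and a fit of only the libraries compared 0 (Per1 adjusted p = 0.165). With a replicate block the count was 0 (Per1 adjusted p = 0.0690), and with it Nr1d1 also lost its call for sham surgery in PKM2-/- hearts (adjusted p = 0.0850), while no other call of a clock gene changed. Each library came from its own mouse. Same-numbered libraries correlated at -0.196 to 0.126 (1 of 36 over 0.1), and 3 of 16 correlated best with their own number. These values show no pairing by number, but whether the numbers mark a shared batch was not tested. For MI against sham in PKM2fl/fl hearts (4 called) the adjusted p alone gave 7, total count scaling 7, and total count scaling without the 187 rRNA-related loci 2 (Per3 and Dbp). In PKM2-/- hearts (5 called) total count scaling gave 2 (Nr1d1 and Dbp), and for sham against baseline in PKM2-/- hearts (4 called) 2 (Arntl and Dbp). For the slope on Arntl DESeq2 called 1 (Per3, adjusted p = 0.0487). With single libraries left out, the counts ranged from 0 to 4 between genotypes after MI, from 2 to 5 for MI in PKM2fl/fl, from 4 to 6 for MI in PKM2-/-, and from 1 to 4 for sham surgery in PKM2-/- hearts. Fits without 1 of 2 baseline libraries assume that the lone library varies like the other groups. The cause of these differences was not tested.

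Total count scaling moved the median log2 fold change of all genes to -0.59 (genotype at baseline), -0.33 (genotype after sham), 0.36 (genotype after MI), -0.17 (MI in PKM2fl/fl), 0.52 (MI in PKM2-/-), 0.23 (sham surgery in PKM2-/-), 0.68 and 0.26 (interactions with MI and sham) and 0.42 (slope). Each library is scaled by a single factor, which moves all its genes alike. Relative to that median, the 14 calls of clock genes therefore had to stay nearly as they were. They shifted by 0.00293 to 0.0136, which is no test of the calls.

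Counts over all genes depended more on the tool. For genotype effects, the counts of 2 (baseline), 1 (sham) and 85 (MI) were 11, 106 and 276 with DESeq2, 44, 114 and 119 with total count scaling, and 46, 9 and 6 with only the libraries compared. For sham surgery, the counts of 35 (PKM2fl/fl) and 548 (PKM2-/-) were 233 and 638 with DESeq2 and 14 and 183 with limma-voom. For the interactions with MI and sham, 0 and 0 became 36 and 20 with DESeq2 and 52 and 5 with total count scaling, and the 0 of the slope became 26 and 33. With the replicate block the 85 became 46, and by the adjusted p alone 199. With single libraries left out, the genotype effect after MI called 11 to 634 genes and its interaction 0 to 227. Each group held 2 or 3 mice, and the parts of depth and of the spread between mice in these counts were not tested.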
